A study of Homo sapiens with 4 samples.

Results

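Eph receptors and ephrins were described here in TC-71, an established Ewing sarcoma (EWS) cell line, through 10 genes: the receptors EPHA3, EPHA4, EPHA7, EPHB2, EPHB3 and EPHB4 and the ephrins EFNA1, EFNA5, EFNB1 and EFNB2. Each had 1 of the 23383 transcript clusters that carried exactly 1 gene symbol, among 67539 clusters in all. The set was chosen by the measured log2 differences of this same comparison, because EPHA3, EPHA4 and EFNB1 rise in it, so the differences of these genes, and the thresholds they are said to meet, describe the values that chose them and are no independent test. RNA was profiled on the GeneChip Human Transcriptome Array 2.0, on 2 arrays per group. The exposed group (exoTCsiCD99 in the labels, replicates C and D) was TC-71 exposed for 24 h to exosomes (EXOs) from CD99-silenced TC-71 cells, called CD99neg EXOs. For functional assays the authors used 10 µg of EXOs per 5000 cells in serum-free conditions. The dose and the medium of the arrays, exposed or untreated, are not stated in the sources used here. The other group (replicates A and B) was untreated TC-71, which received no EXOs, so an effect of EXOs as such and one of their CD99neg origin cannot be told apart. All arrays held the same cell line, and the EXO donors were derived from it. The replicates are labelled biological, but nothing says whether they came from separate cultures, so their spread may be technical.

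Eph receptors are the largest family of receptor tyrosine kinases, and ephrins are their membrane-bound ligands. A-class ephrins are held by a lipid anchor and mostly bind EphA receptors, B-class ephrins span the membrane and mostly bind EphB receptors, and EPHA4 binds both classes. Signals run in both directions at cell contacts, forward into the cell with the receptor and in reverse into the cell with the ephrin, and they steer growing axons, migrating neural crest cells and the sorting of tissues.

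The values are log2 signals that the authors had quantile normalized, and the median of all clusters was 5.45 and 5.44 on the exposed arrays and 5.42 and 5.38 on the untreated arrays. Probes differ in how they bind, so the signal of a gene is compared between arrays and not with that of another gene. A cluster was called when limma gave an adjusted p of at most 0.05 over all clusters and a fold of at least 1.5, which is a log2 difference of 0.585. Over all clusters 2.59% were called, 1.54% were called higher in exposed cells, and 2.06% of those with exactly 1 symbol were called. The 9 EWS markers looked up, CD99 among them, lay above the array median on every array. Of these, 1 was called, NR0B1, with means of 6.32 in exposed and 6.94 in untreated cells (log2 difference -0.62, adjusted p = 0.0137 from limma). STEAP1, at -0.56 (adjusted p = 0.0141 from limma), lay below the fold of 1.5. BCL11B, CD99 and NKX2-2 went the other way, by 0.42, 0.32 and 0.23 (adjusted p = 0.0129, 0.0161 and 0.0374 from limma), also below that fold. STEAP2, PRKCB, CCND1 and LIPI had an adjusted p above 0.05. PTPRC, PECAM1, EPCAM and PDGFRA, defining markers of leukocytes, endothelium, epithelium and fibroblasts, lay below the median on every array, but 2 markers of each of these lists lay above it on every array. Of 15 markers of these other cell types with a cluster, 0 were called by limma. At an unadjusted p under 0.05 from limma there was 1 of 15, beside 22.2% of all clusters. That was DCN of the fibroblast list, with mean signals of 5.88 in exposed and 5.37 in untreated cells (log2 difference 0.52, adjusted p = 0.0120 from limma). The other fibroblast markers, COL1A1, COL1A2 and PDGFRA, had differences of 0.014, 0.061 and 0.007. The summed log2 signal of the 4 fibroblast markers, in which DCN moved most, was 24.2 to 24.3 on exposed and 23.6 to 23.8 on untreated arrays. Its part in the results was not tested. In bulk RNA, fewer cells with a transcript and less of it per cell cannot be told apart.

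After exposure to CD99neg EXOs, EPHA4, EPHA3 and EFNB1 met both call thresholds as higher, EFNA5 lay just below the fold of 1.5, and EPHB3 was lower by a smaller step. This makes 3 of 10 members called, all higher, beside the 1.54% of all clusters called higher, a count that follows from how the members were chosen. EPHA7 and EPHB4 differed by small amounts, and EPHB2, EFNA1 and EFNB2 had overlapping groups. The groups did not overlap in 7 of 10 members, against 47.9% of all clusters. In the same 7 the gap between the groups was larger than the gap between either pair of replicates, against 22.6% of all clusters. The median difference of the members was 0.18 on the log2 scale, beside 0.01 over all clusters, and 8 of 10 were positive. This count was 6 to 9 under the other scalings and without each array, 6 of 10 with median centring, after another quantile normalization and without untreated replicate B. Nothing is read from these shares, since the members were chosen on the same values.

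**Figure D1:**
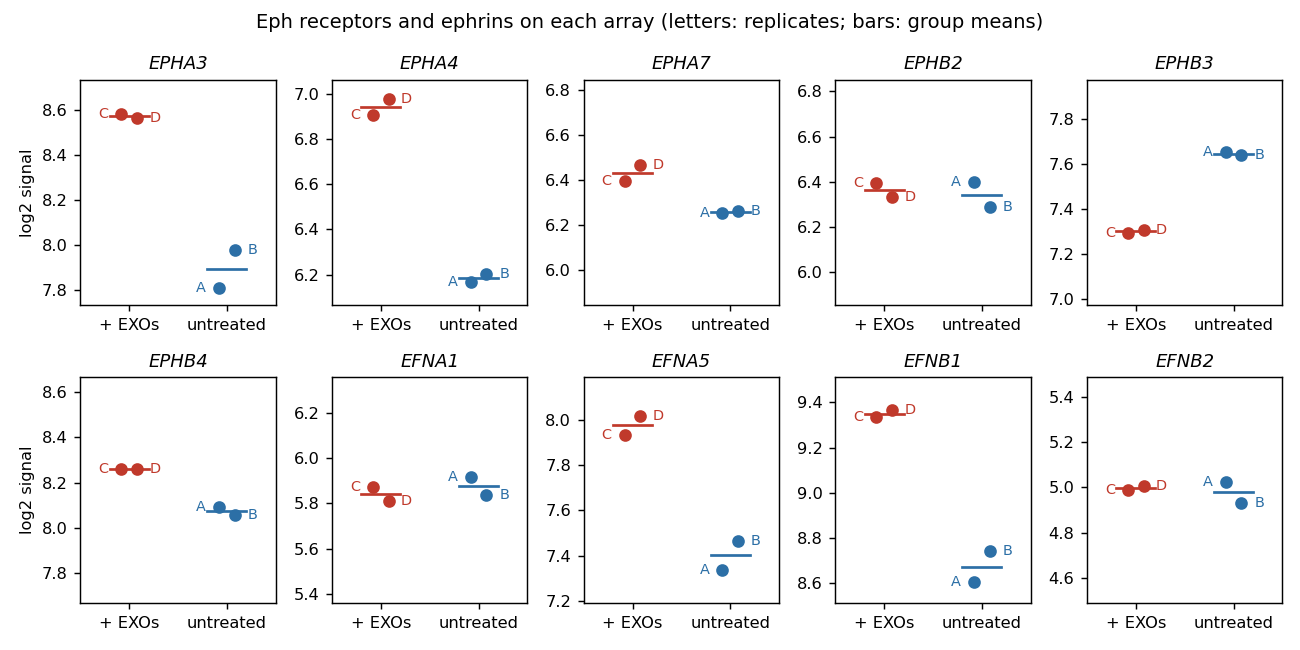
Log2 signal (y axis, a window of the same height for each gene) of the 10 genes on the exposed arrays C and D (red, left) and the untreated arrays A and B (blue, right), with bars at the group means (n = 2 arrays each). EPHA3, EPHA4, EFNA5 and EFNB1 sit higher on both exposed arrays, EPHB3 sits lower on both, and EPHB2, EFNA1 and EFNB2 overlap.

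Among the A-class receptors, all 3 described were positive. EPHA4, the receptor that binds both ephrin classes and is known for guiding motor and corticospinal axons, had log2 signals of 6.91 and 6.98 on exposed arrays C and D, against 6.17 and 6.20 on untreated arrays A and B. Both exposed arrays lay above both untreated ones by at least 0.70, while replicates differed by at most 0.07. The means were 6.94 ± 0.05 in exposed and 6.19 ± 0.02 in untreated cells (SD, n = 2 arrays each), a log2 difference of 0.76 or a fold of 1.69, the largest of the 22 Eph receptors and ephrins on the array. EPHA3, a receptor of A-class ephrins with a high affinity for ephrin-A5, had 8.58 and 8.56 on the exposed arrays, against 7.81 and 7.98 on the untreated arrays. The exposed arrays were close together and the untreated ones were further apart, with B above A by 0.17. The means were 8.57 ± 0.01 in exposed and 7.89 ± 0.12 in untreated cells, a difference of 0.68 or a fold of 1.60. EPHA7, which binds A-class ephrins and takes part in cortical development, had 6.40 and 6.47 on the exposed arrays, against 6.26 and 6.26 on the untreated arrays. Its groups did not overlap, but the step was small, with means of 6.43 ± 0.05 in exposed and 6.26 ± 0.0048 in untreated cells and a difference of 0.17.

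The B-class receptors went different ways. EPHB3, known with EPHB2 for placing cells along the intestinal crypt, had 7.29 and 7.31 on the exposed arrays, against 7.65 and 7.64 on the untreated arrays. Replicates differed by at most 0.01, and both exposed arrays lay below both untreated ones. The means were 7.30 ± 0.01 in exposed and 7.64 ± 0.01 in untreated cells, a difference of -0.34, so that untreated cells had 1.27 times the exposed signal. It was the lowest difference of the family, and it did not reach the fold of 1.5. EPHB4, the receptor of ephrin-B2 on venous endothelium, had 8.26 on both exposed arrays, against 8.09 and 8.06 on the untreated arrays, a difference of 0.19 with no overlap. EPHB2, the receptor that also guides commissural axons, had 6.39 and 6.33 on the exposed arrays, against 6.40 and 6.29 on the untreated arrays. Its untreated replicates enclosed both exposed values, and the difference was 0.02.

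Each ephrin class held 1 gene with a clear step and 1 without. EFNB1, the transmembrane ephrin-B1, whose gene is on the X chromosome and is mutated in craniofrontonasal syndrome, had 9.34 and 9.36 on the exposed arrays, against 8.60 and 8.74 on the untreated arrays. The nearest arrays of the groups were 0.60 apart, and the untreated arrays differed by 0.14. The means were 9.35 ± 0.02 in exposed and 8.67 ± 0.10 in untreated cells, a difference of 0.68 or a fold of 1.60. EFNA5, the lipid-anchored ephrin-A5 that repels retinal axons, had 7.94 and 8.02 on the exposed arrays, against 7.34 and 7.47 on the untreated arrays. No value of one group reached the other. The means were 7.98 ± 0.06 in exposed and 7.40 ± 0.09 in untreated cells, a difference of 0.577 or a fold of 1.49. EFNA5 is thus the member just outside the fold of 1.5, while EPHA3 and EFNB1, at 1.60 each, are the members just inside it. EFNB2, the transmembrane ephrin of arterial endothelium, had 4.99 and 5.01 on the exposed arrays, against 5.03 and 4.93 on the untreated arrays. It lay below the array median on all 4 arrays, the only member to do so, with a difference of 0.02. EFNA1, a lipid-anchored ephrin first found as a gene induced by tumour necrosis factor, had 5.87 and 5.81 on the exposed arrays, against 5.92 and 5.84 on the untreated arrays, and these overlapped.

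EPHA3, EFNA5 and EFNB1 shared the order of the untreated arrays, with B above A by 0.17, 0.13 and 0.14, although the median of array B was the lower one. Leaving out untreated replicate A gave differences of 0.59 for EPHA3, 0.51 for EFNA5 and 0.61 for EFNB1, and leaving out replicate B gave 0.76, 0.64 and 0.75. EPHA4 stayed between 0.72 and 0.79 without any 1 array, and EPHB3 between -0.35 and -0.34. EFNA5 passed both call thresholds without untreated replicate B, without exposed replicate C and after another quantile normalization. Under every other scaling and without each array, EPHA3, EPHA4 and EFNB1 stayed called and no member with a gap between its groups changed sign, whereas EPHB2, EFNB2 and EFNA1 fell on either side of 0.

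**Figure D2:**
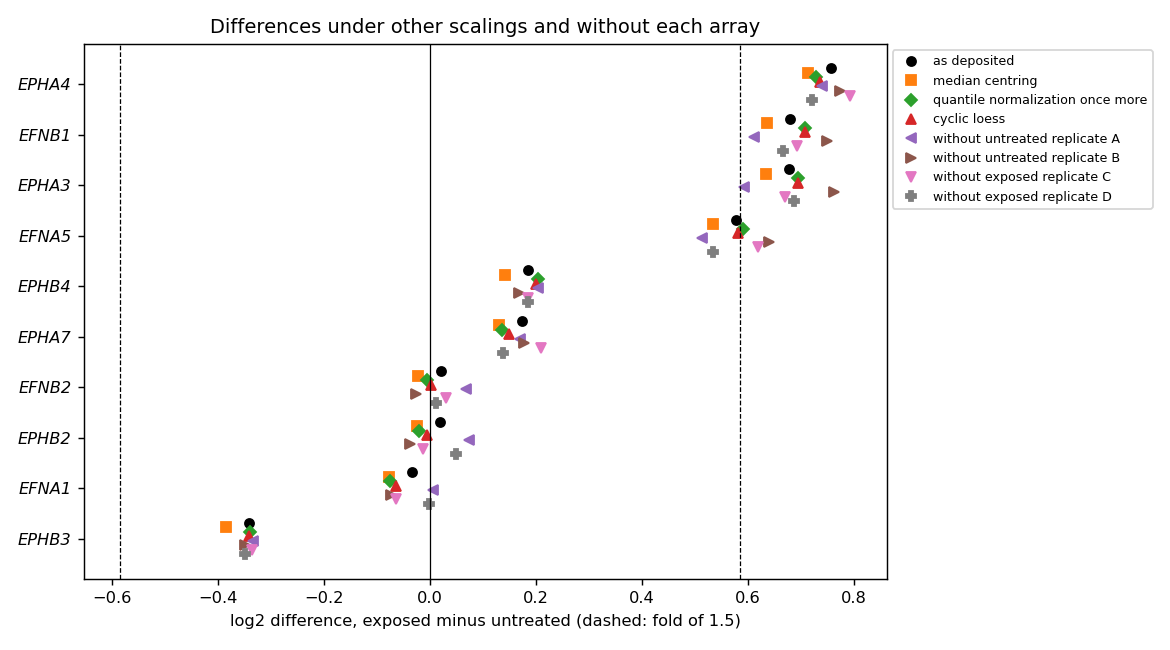
Log2 difference (x axis, exposed minus untreated) of each of the 10 genes (rows) as deposited, under 3 other scalings and without each of the 4 arrays. EPHA3, EPHA4 and EFNB1 stay right of the dashed line at a fold of 1.5, EFNA5 lies on both sides of it, and EPHB2, EFNB2 and EFNA1 scatter around 0.

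The promoters of the members that moved most are shown because these genes share a direction of change, or in EPHB3 go the other way. They are the 250 bases before the start of the gene in RefSeq (GRCh38.p14), read 5′ to 3′ on the strand of the gene, a build that need not be that of the array annotation. Capitals mark 2 motifs on either strand, the GC box GGGCGG bound by Sp factors and the site GCGNGGGCG bound by EGR1, which can overlap each other.
EPHA3, chr3:89107371-89107620, plus strand: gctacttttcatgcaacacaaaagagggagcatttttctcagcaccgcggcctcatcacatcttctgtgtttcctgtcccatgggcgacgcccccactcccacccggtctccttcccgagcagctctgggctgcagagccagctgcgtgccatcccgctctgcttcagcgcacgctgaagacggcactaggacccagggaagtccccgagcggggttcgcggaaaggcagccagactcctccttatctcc
EPHA4, chr2:221572305-221572554, minus strand: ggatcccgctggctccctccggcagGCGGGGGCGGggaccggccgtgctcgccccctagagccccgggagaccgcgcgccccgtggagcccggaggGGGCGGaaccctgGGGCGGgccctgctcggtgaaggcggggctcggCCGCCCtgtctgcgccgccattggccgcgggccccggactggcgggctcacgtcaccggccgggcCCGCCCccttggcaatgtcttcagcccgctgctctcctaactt
EFNB1, chrX:68828771-68829020, plus strand: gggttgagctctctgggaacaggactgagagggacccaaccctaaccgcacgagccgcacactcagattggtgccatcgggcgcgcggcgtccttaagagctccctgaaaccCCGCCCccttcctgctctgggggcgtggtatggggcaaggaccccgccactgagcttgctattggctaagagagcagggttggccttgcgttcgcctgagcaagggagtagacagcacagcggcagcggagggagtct
EFNA5, chr5:107670938-107671187, minus strand: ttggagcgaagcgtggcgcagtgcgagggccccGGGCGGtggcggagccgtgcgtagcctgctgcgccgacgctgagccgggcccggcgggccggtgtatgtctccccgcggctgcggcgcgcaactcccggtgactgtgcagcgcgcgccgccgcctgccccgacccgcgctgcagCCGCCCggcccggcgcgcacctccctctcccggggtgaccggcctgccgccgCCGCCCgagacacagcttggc
EPHB3, chr3:184561535-184561784, plus strand: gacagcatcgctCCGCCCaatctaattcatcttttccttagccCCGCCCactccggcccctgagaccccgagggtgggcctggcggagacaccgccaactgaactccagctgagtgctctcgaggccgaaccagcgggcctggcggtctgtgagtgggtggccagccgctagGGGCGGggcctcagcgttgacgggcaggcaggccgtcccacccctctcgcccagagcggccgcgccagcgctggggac

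All 10 members matched the RefSeq table, with 14 windows in all, since EPHA4, EPHA7 and EPHB2 have more than 1 start. The windows are rich in G and C, with a median of 71.4% against 58.0% over all 35116 windows of the table, and 12 of 14 lay above that median. The GC box was found in 13 of 14 windows and in 9 of 10 genes, with EPHA3 as the 1 without it, beside 42.6% of all windows. The EPHA7 windows include an overlapping pair that shares its GC box, and the windows of EPHB2 share theirs, so the 14 windows are not independent. The EGR site was found in 4 of 14 windows, those of EFNA1, of EPHB2, whose 2 windows are 1 base apart, and of the downstream start of EPHA4, 225 bases before it, beside 8.41% of all windows. The window of the upstream start of EPHA4 holds 43.2% G and C and no EGR site. The AP-1 site TGANTCA and the repeat GGAAGGAA, of the kind bound by EWS-FLI1, were searched on both strands as well. They were in 0 of 14 windows, beside 6.57% and 3.06% of all windows. These are matches of letters, and binding was not measured. The GC box and all fixed letters of the EGR site are G or C. The shares over all windows are not matched for G and C content.

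EPHA3 and EFNB1 had nearly the same course over the 4 arrays, with a Euclidean distance of 0.04 between their log2 signals after each was centred on its own mean. EPHA4 lay 0.11 from EFNB1 and 0.14 from EPHA3, and EFNA5 0.11 from EFNB1 and 0.13 from EPHA3. Outside the family, the 3 clusters nearest to EPHA3 were 2 of KANSL1, a subunit of a histone acetyltransferase complex, at 0.02 and 0.04, and 1 of the zinc finger gene ZNF17 at 0.03. The nearest to EPHA4 were RGS4, a regulator of G protein signalling, at 0.02, SEZ6L2, a neuronal membrane protein, at 0.04, and FAM43A at 0.04. The nearest to EFNB1 were ZNF17 at 0.02, DCAF16, a ubiquitin ligase adaptor, at 0.03, and AFF1, a component of elongation complexes, at 0.03. Within a distance of 0.1 there were 46, 40 and 56 clusters with exactly 1 symbol for EPHA3, EPHA4 and EFNB1, so with 4 arrays such likeness is shared by many genes.

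The other 12 Eph receptors and ephrins were not among the chosen genes and were tested in the same fit. They are what that choice left, so their counts are not independent of it. By limma, 0 of 12 were called, beside the 2.59% of all clusters. Without moderation 0 of 12 and 0 of all clusters were called. At an unadjusted p under 0.05 from limma there was 1 of 12, beside 22.2% of all clusters. That gene was EPHA5, an A-class receptor of the nervous system, with 5.56 and 5.57 on the exposed arrays against 5.21 and 5.21 on the untreated arrays. Its exposed arrays both lay above its untreated ones, with a log2 difference of 0.36 (standard error 0.04, adjusted p = 0.0121 from limma), below the fold of 1.5. The untreated arrays lay below the array median, and the adjusted p was 0.0541 to 0.0627 without any 1 array and 0.162 without moderation. The other 11 had differences from -0.05 to 0.07. Among the other ephrins the largest was that of EFNA3, with means of 8.01 ± 0.04 in exposed and 7.94 ± 0.02 in untreated cells (SD, n = 2 arrays each; difference 0.07, adjusted p = 0.463 from limma). Over the whole family of 22 genes, 18 differences were positive, with a median of 0.06, beside 56.4% positive and a median of 0.01 over all clusters. The 22 hold the 10 members chosen on these values. Of the other 12, 10 were positive, all but EPHA5 by small amounts, and their signs under other scalings were not counted. Nothing is read from these counts.

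**Figure D3:**
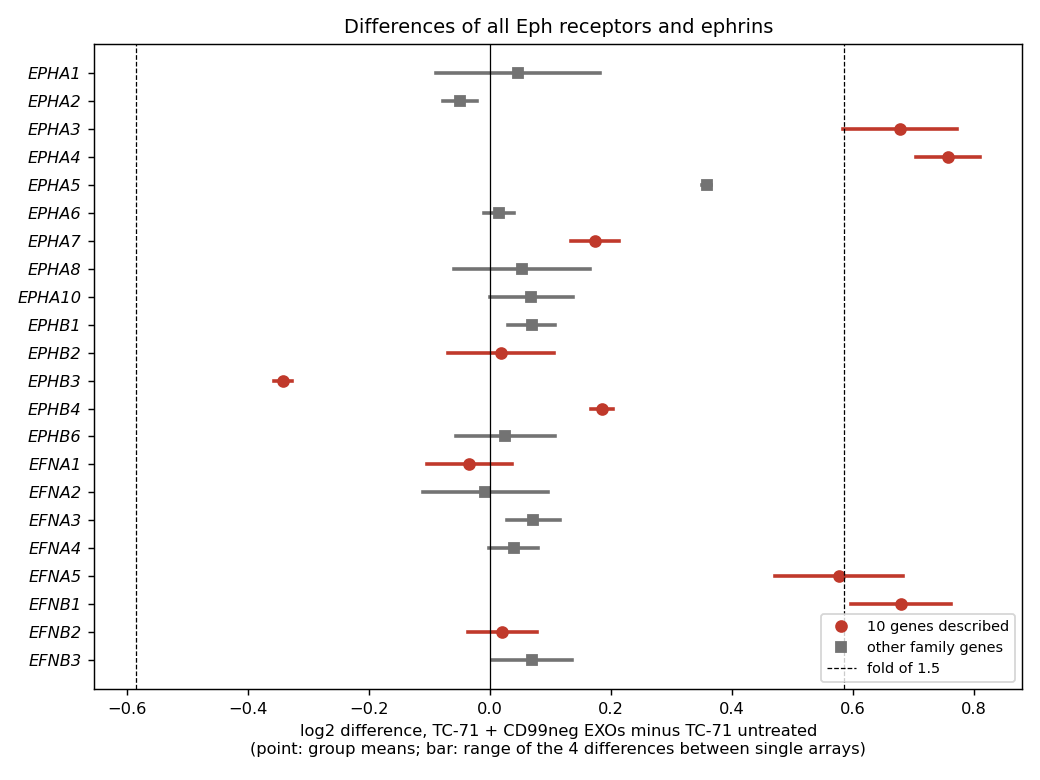
Log2 difference (x axis, exposed minus untreated) of all 22 Eph receptors and ephrins (rows), with the 10 genes described in red and the other 12 in grey. Points are differences of group means and bars the range of the 4 differences between single arrays; EPHA5 is the grey gene farthest from 0.

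Genes that carry or end Eph-ephrin signals were counted in 4 lists. Of 61 listed, 57 had a named cluster, and by limma 0 were called in either direction, beside the 2.59% of all clusters. At an unadjusted p under 0.05 there were 28 of 57, beside 22.2% of all clusters. By an unmoderated test 0 of the 57 and 0 of all clusters were called, so that test sets no gene apart. With the adjusted p alone, 5 were higher and 9 lower, which is 24.6% of 57 beside 9.7% of all clusters. Most of these 14 did not pass when any 1 array was left out. The share of all clusters that passed fell as well in those fits, in which a group holds a single array. Of the 57 genes, 51 lay above the array median on every array, so the share over all clusters is not one of like signal. With dim clusters left out, 16 of the signalling genes passed the adjusted p, beside 22.6% of the clusters kept. The dim genes among the 57 were not in that fit, so the 16 are not a share of 57. The median difference of the 57 genes as deposited was -0.01, beside 0.01 over all clusters.

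Kinases and phosphatases held 7 of these 14 genes. ROCK1, the kinase that drives actomyosin contraction downstream of RhoA, had 7.50 and 7.64 on the exposed arrays, against 7.96 and 8.17 on the untreated arrays. Both exposed arrays were lower, with a log2 difference of -0.49 (standard error 0.09, adjusted p = 0.0428 from limma). It did not pass with median centring (0.0501), with cyclic loess (0.0646), without moderation (0.346) or without any 1 array (0.0570 to 0.142). PTPN13, a phosphatase that binds the tails of B-class ephrins, had 9.80 and 9.88 on the exposed arrays, against 9.23 and 9.48 on the untreated arrays. Its difference was 0.49 (standard error 0.09, adjusted p = 0.0494 from limma), and it met both thresholds when untreated replicate B was left out but did not pass without any other array. The kinases ABL1 and FYN, which act downstream of Eph receptors and ephrins, were higher by 0.35 and 0.28, and the phosphatases INPPL1 (SHIP2) and PTPN11 (SHP2) and the kinase CDK5 had differences of -0.37, -0.36 and -0.30 (adjusted p from 0.0132 to 0.0375 from limma). PTPN13 did not pass with a robust prior or with median centring, and CDK5 did not pass after another quantile normalization or with cyclic loess. The genes of this list other than ROCK1 were named after their values were seen.

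The proteases held 4. ADAM10, the sheddase that cuts ephrins from the cell surface when receptor and ligand meet, had 7.44 and 7.49 on the exposed arrays, against 7.79 and 7.92 on the untreated arrays. Both exposed arrays were lower, with a difference of -0.39 (standard error 0.06, adjusted p = 0.0245 from limma). The adjusted p was 0.0471 to 0.105 without each array, under 0.05 only without untreated replicate A, and 0.278 without moderation. ADAM17 and MMP14, also proteases of the cell surface, had -0.29 and -0.31, and the secreted gelatinase MMP2 had 0.35 (adjusted p = 0.0461, 0.0342 and 0.0435 from limma), all below the fold of 1.5. ADAM17 did not pass with a robust prior, median centring or cyclic loess, and MMP14 did not pass with cyclic loess. Among the adaptors, CRK had -0.32 and GRB10 had 0.23 (adjusted p = 0.0227 and 0.0366). The largest difference among them was that of CBL, the ubiquitin ligase that targets Eph receptors for degradation, with -0.38, which did not pass (adjusted p = 0.0692) but did with a trended prior (0.0294), after another quantile normalization (0.0453) and without dim clusters (0.0145). Among GTPases and their regulators, NGEF, which encodes ephexin-1, the exchange factor that couples EPHA4 to RhoA, had 7.02 and 7.003 on the exposed arrays, against 7.24 and 7.19 on the untreated arrays. The groups did not overlap, with a difference of -0.20 (standard error 0.04, adjusted p = 0.0487 from limma). NGEF did not pass with a trended or a robust prior or without dim clusters, nor, like every cluster, without moderation. SIPA1L1, a GTPase-activating protein that binds EPHA4, had the largest difference of that list, -0.24, and did not pass (adjusted p = 0.0807). GRB10 did not pass with a trended prior or with median centring. The proteases other than ADAM10, CRK, GRB10 and NGEF were named after their values were seen.

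**Figure D4:**
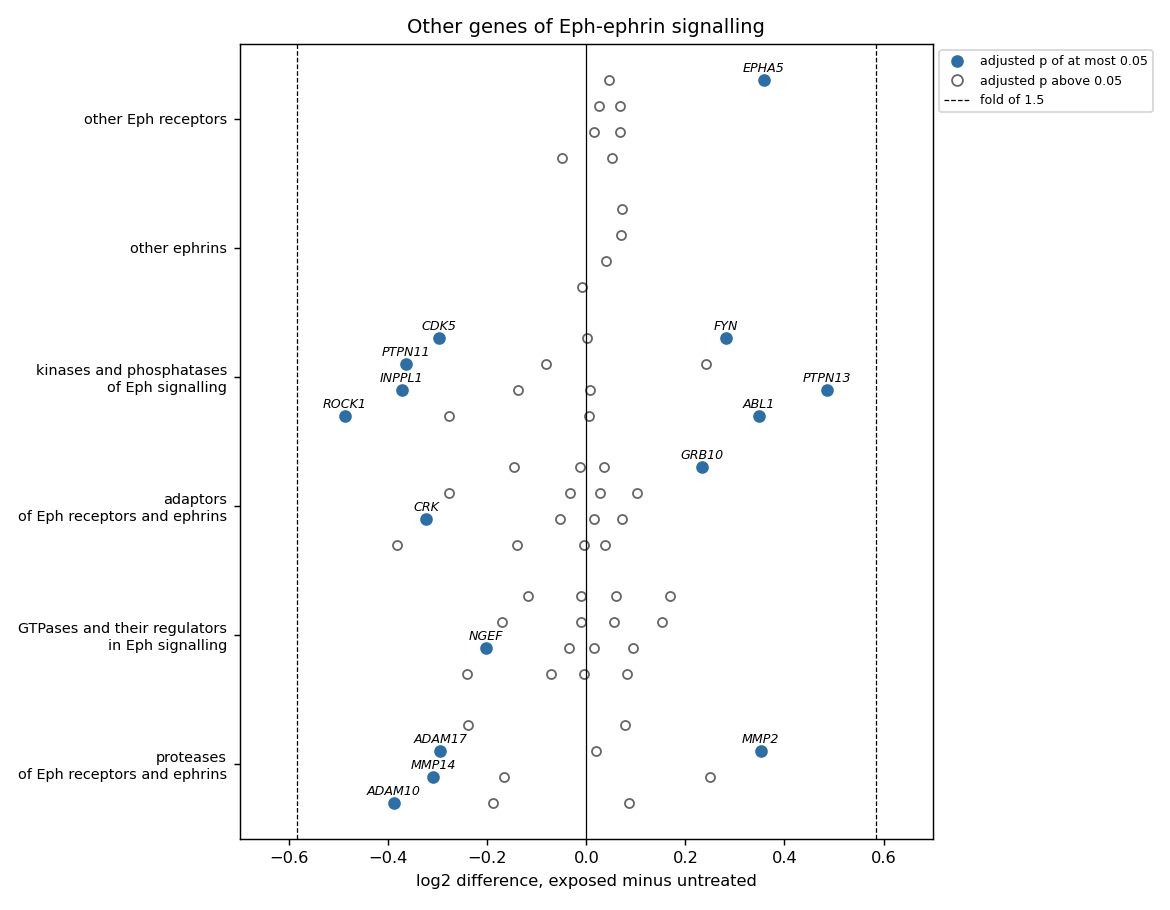
Log2 difference (x axis, exposed minus untreated) of 69 other genes of Eph-ephrin signalling in 6 lists (rows, spread vertically for legibility). Filled and labelled points passed an adjusted p of 0.05 in limma, and no point reaches the dashed lines at a fold of 1.5.

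Set among all transcript clusters of the array, EPHA3, EPHA4 and EFNB1 lie above the bulk of clusters of like signal, EFNA5 lies on the line of the fold of 1.5, and EFNB2 lies in the dense band of dim clusters.

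**Figure D5:**
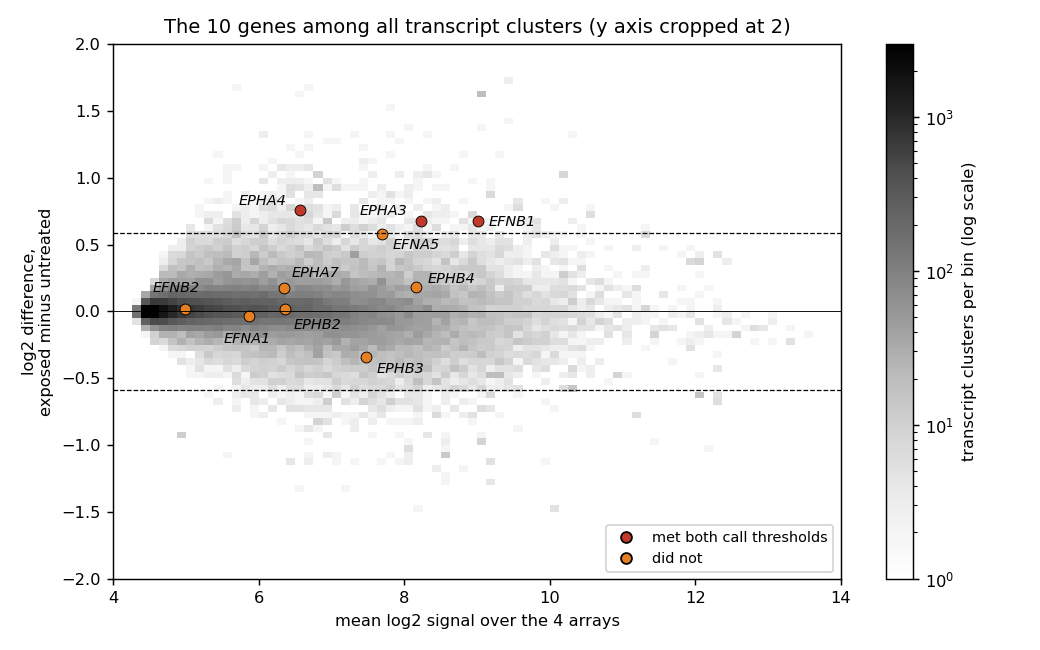
Number of transcript clusters (grey, log scale) by mean log2 signal over the 4 arrays (x axis) and log2 difference, exposed minus untreated (y axis, 10 clusters beyond 2 are not drawn). Red points are the 3 genes that met both call thresholds and orange points the other 7.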

How the data were processed

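Total RNA of TC-71 was hybridised to the GeneChip Human Transcriptome Array 2.0. The authors used GeneSpring, with the ExonRMA16 algorithm for summarization and quantile normalization between arrays, and deposited log2 signals of 67539 transcript clusters. These values were not normalized again. The genome build behind the cluster names is not stated in the sources used here, so cluster positions are left out. Names came from the platform table: 23383 clusters had a single symbol, 1225 several and 42931 none. A gene with several clusters was represented by the one with the highest mean.

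Differences were fitted as TC-71 + CD99neg EXOs minus TC-71 with limma 3.58.1 (lmFit and eBayes, R 4.3.3; 2 residual and 2.59 prior degrees of freedom), with Benjamini-Hochberg adjustment over all clusters. The fit was tested on simulated data. Precision is limited by the number of arrays, and p-values measure only the spread between these arrays. The members, gene lists and motifs were chosen with earlier results of these data known. The rule for named genes took the 10 members, the called genes of each list or, with none called, its largest difference, and the 3 nearest clusters to each called member. Other genes were named after their values were seen. Listed genes with no named cluster were not analysed here. Promoter sequences came from RefSeq (GRCh38.p14). Alternatives were other priors, scalings, filters and thresholds, and each array left out. Averaging the clusters of a symbol changed nothing for the members, which have 1 each.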

Additional observations from a re-analysis of the deposited data

How the results depend on the processing

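EPHA3, EPHA4 and EFNB1 met both thresholds with a trended or robust prior, with median centring, quantile normalization once more and cyclic loess, without dim or duplicate clusters, and without each array. The number of members called was 3 to 4 without each array, and 1390 to 1832 of all clusters were called. Of the 69 other pathway genes 0 to 1 were called without each array, the 1 being PTPN13 without untreated replicate B. Without moderation 0 members and 0 of all clusters were called after adjustment. With a fold of at least 2, 0 members and 421 clusters were called. With no fold threshold 5 members (EFNA5 and EPHB3 added), 6550 clusters and 15 pathway genes passed. Median centring moved the median difference of all clusters to -0.03 and gave 865 higher and 867 lower clusters, against 1043 and 703 as deposited; EPHA4 then had 0.71 and EPHB3 -0.39. By adjusted p alone, 11 to 18 of the 57 signalling genes passed with other priors and scalings, beside 8.27% to 10.8% of all clusters. Without duplicate clusters 14 passed, beside 9.53% of the clusters kept. Without dim clusters, and so without the dim genes of the 57, 16 passed, beside 22.6% of the clusters kept. Without any 1 array fewer passed than as deposited, both of the 57 and of all clusters. Without moderation 0 of the 57 and 0 of all clusters passed. No paired analysis was possible because the groups share no replicate letter.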
